A study of Mus musculus with 6 samples.

Results

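Splicing factors and heterogeneous nuclear ribonucleoproteins were followed in mouse spermatogonia, the dividing germ cells at the base of the testis tubule, by microarrays of total RNA at 1 week of age. The members were all genes on the arrays whose single annotated symbol starts with Snrp (except Snrpn), Sf3a, Sf3b, Srsf, Hnrnp or Prpf, together with Sart1 and Sart3. This rule used symbols only and found 57 genes among the 15964 genes with a symbol, measured by 135 probe sets. The compared groups were Null, mice carrying the Zfp145 knock out, and WT, wild-type mice, both 129sv/c57Bl6. Zfp145 is the older name of Zbtb16, which encodes the zinc finger repressor PLZF. There was 1 array per genotype on each of 3 Affymetrix chips (U74Av2, U74Bv2, U74Cv2), whose probe sets differ. The 6 arrays hold no replicates, no p-value is given, and the number of arrays limits the precision. The labels do not say how the knockout was made, how cells were collected or how many animals gave RNA.

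Introns are removed from transcripts by the spliceosome, a machine built from the small nuclear ribonucleoproteins U1, U2, U4, U5 and U6. Sm proteins form the ring on most of the small nuclear RNAs, the SF3A and SF3B complexes hold U2 at the branch site, and PRPF proteins build and remodel the U4/U6.U5 particle and the catalytic spliceosome. SR proteins, encoded by the Srsf genes, mostly promote the use of an exon, while hnRNPs coat nascent transcripts and often repress splice sites. The testis is known for extensive alternative splicing.

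The targeted gene was checked first. On U74Av2 1 Zbtb16 probe set read 158.1 on the Null array and 770.2 on the WT array, and on U74Cv2 another read 510.8 on the Null array and 1156.8 on the WT array. Their log2 ratios of Null over WT were -2.29 and -1.20, and another probe set on U74Av2 lay below the floor on both arrays. All 12 germ cell markers examined were measured, as were all 9 Sertoli cell markers, all 5 macrophage markers and all 5 endothelial markers. Here measured means above the floor, defined below, on at least 1 array, and is not a detection call. Insl3 of Leydig cells and Cnn1 and Des of peritubular myoid cells were below the floor on both arrays. Markers of somatic testis cells were thus measured in RNA labelled as spermatogonia. The median log2 ratio was 0.23 for germ cell markers, -0.12 for Sertoli, -0.37 for Leydig, -0.17 for macrophage, 0.12 for endothelial, 0.02 for peritubular myoid and -0.59 for erythroid markers. The erythroid value rests on 2 measured genes, Hba-a1 and Alas2, and Alas2 was below the floor on the Null array. Of the germ cell markers 7 had ratios above 0 and 5 below, from -1.32 for Sall4 to 0.94 for Prm1. The 12 were Dazl, Ddx4, Mael, Sall4, Gfra1, Kit, Stra8, Dppa3, Sycp3, Tex101, Prm1 and Tnp1. Germ cell markers with their value on U74Av2 summed to 9618.1 on the Null array and 7688.2 on the WT array. Most of this was Dazl, with 6372.8 on the Null array and 4287.3 on the WT array. On U74Bv2, Mael and Tex101 summed to 5063.2 on the Null array and 6773.2 on the WT array. The germ cell markers on U74Cv2 summed to 3548.6 on the Null array and 4606.2 on the WT array. Of them Sall4 differed most, with 1042.1 on the Null array and 2568.1 on the WT array. Single genes can thus set the direction of such a sum, so the sums do not measure germ cell content. They also hold different genes on each chip, so they cannot be compared between chips. Of the Sertoli markers 3 had ratios above 0 and 6 below. Those with their value on U74Av2 summed to 30000.2 on the Null array and 34600.1 on the WT array. Only Gata4 had its value on U74Bv2, with 3069.6 on the Null array and 2784.5 on the WT array. Only Sox9 had its value on U74Cv2, with 3359.8 on the Null array and 3145.5 on the WT array. All 4 measured Leydig markers had ratios below 0. With Insl3 included, the Leydig markers on U74Av2 summed to 996.4 on the Null array and 1402 on the WT array. Only Star had its value on U74Cv2, with 294.8 on the Null array and 326 on the WT array. The part of cell composition in the ratios of splicing genes was not tested, and in such bulk RNA fewer cells of a type and less RNA per cell cannot be told apart. The ratio of 3' to 5' signal of Actb lay between 2.72 and 3.15 on the Null arrays and between 2.95 and 3.15 on the WT arrays. For Gapdh it lay between 1.14 and 1.27 on the Null arrays and between 1.18 and 1.28 on the WT arrays.

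The splicing genes differed little between the Null and the WT array. Each gene was given 1 value, the log2 of Null over WT from its probe set of highest intensity rank within a chip, and 53 of 57 lay between -0.50 and 0.50. Values below a floor, the 40th percentile of a chip, were raised to it. Where 1 array needed this, the ratio is a bound, and where both did, the probe set counts as not measured. All 57 genes were measured by this rule, 56 of them above the floor on both arrays and Snrpb2 on the WT array alone. Sart3 was the 1 gene at least 2-fold higher in Null, where 1.42% of the 12434 measured genes were, and 0 of the 57 were at least 2-fold lower, where 1.64% of all measured genes were. At 1.5-fold, Sart3 and Prpf19 were higher, against 5.3% of all measured genes, and Prpf39 was lower, against 6.32%. Of the 57 values 45 came from U74Av2, 8 from U74Bv2 and 4 from U74Cv2. On U74Av2 the shares of all genes were 0.393% at least 2-fold higher, 0.372% at least 2-fold lower, 2.83% at least 1.5-fold higher and 3.64% at least 1.5-fold lower. The median over the members was 0.09 on the log2 scale, and over all measured genes it was -0.01. Of the 57 ratios 40, or 70.2%, were above 0, where 48.5% of all measured genes were. The probe sets used for the members lay at a median intensity percentile of 92.0 within their chip, against 75.5 for all measured genes and 66.2 for all genes. Among genes at or above the 75th percentile 49.4% of ratios were above 0, and among the 46 members there 31 were. No order of transcript levels between genes is read from these intensities, since probe sets differ in affinity.

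**Figure D1:**
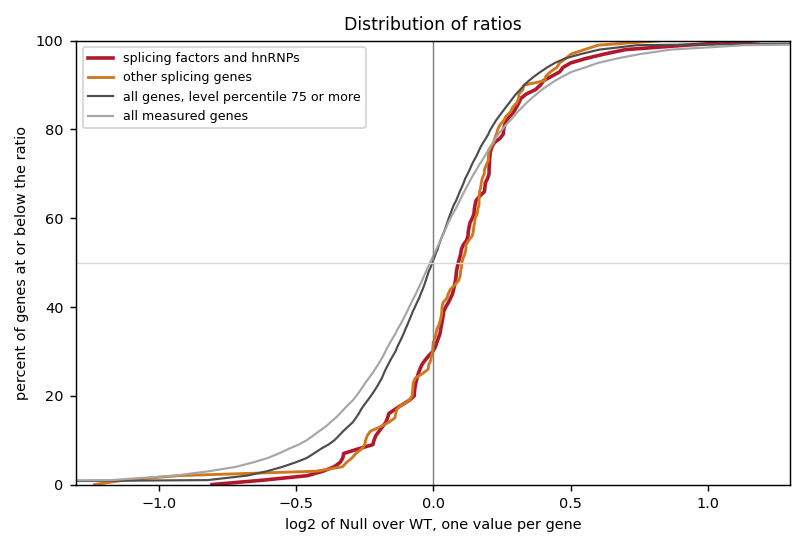
Percent of genes (vertical axis) at or below a log2 ratio of Null over WT (horizontal axis), with 1 value per gene, for the splicing factors and hnRNPs, for other splicing genes, for all genes of high intensity percentile and for all measured genes. The curves of the splicing genes cross 50% at 0.09 for the 57 members and at 0.10 for the other splicing genes, to the right of the curve of all measured genes at -0.01.

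Replicate error cannot be given for 1 array per genotype. Its nearest stand-in is the spread of log2 ratios between different probe sets of 1 gene on 1 chip. That spread was 0.15 at high, 0.27 at middle and 0.35 at low intensity on U74Av2, and 0.25, 0.34 and 0.35 on U74Bv2. On U74Cv2 it was 0.31, 0.47 and 0.56. It holds scatter of the probes and of the transcripts they detect, but nothing of how mice differ. More than 2 such spreads from 0 on the higher side were 7 members, against 4.42% of all measured genes. They were Sart3, Prpf19, Hnrnpab, Hnrnpd, Hnrnpdl, Prpf38a and Srsf6. Of these, Sart3, Prpf19, Hnrnpab and Srsf6 each also had a measured probe set below 0, whereas the second of Hnrnpdl lay above 0. On the lower side were 4 members, Prpf39, Snrpe, Snrpg and Sf3b6, against 5.32% of all measured genes. Both shares are over all chips and intensities. Of the 57 member values 45 came from U74Av2, whose spread at high intensity, 0.15, was the smallest. Shares matched for chip and intensity were not computed, so these counts cannot be set against those of like genes.

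**Figure D2:**
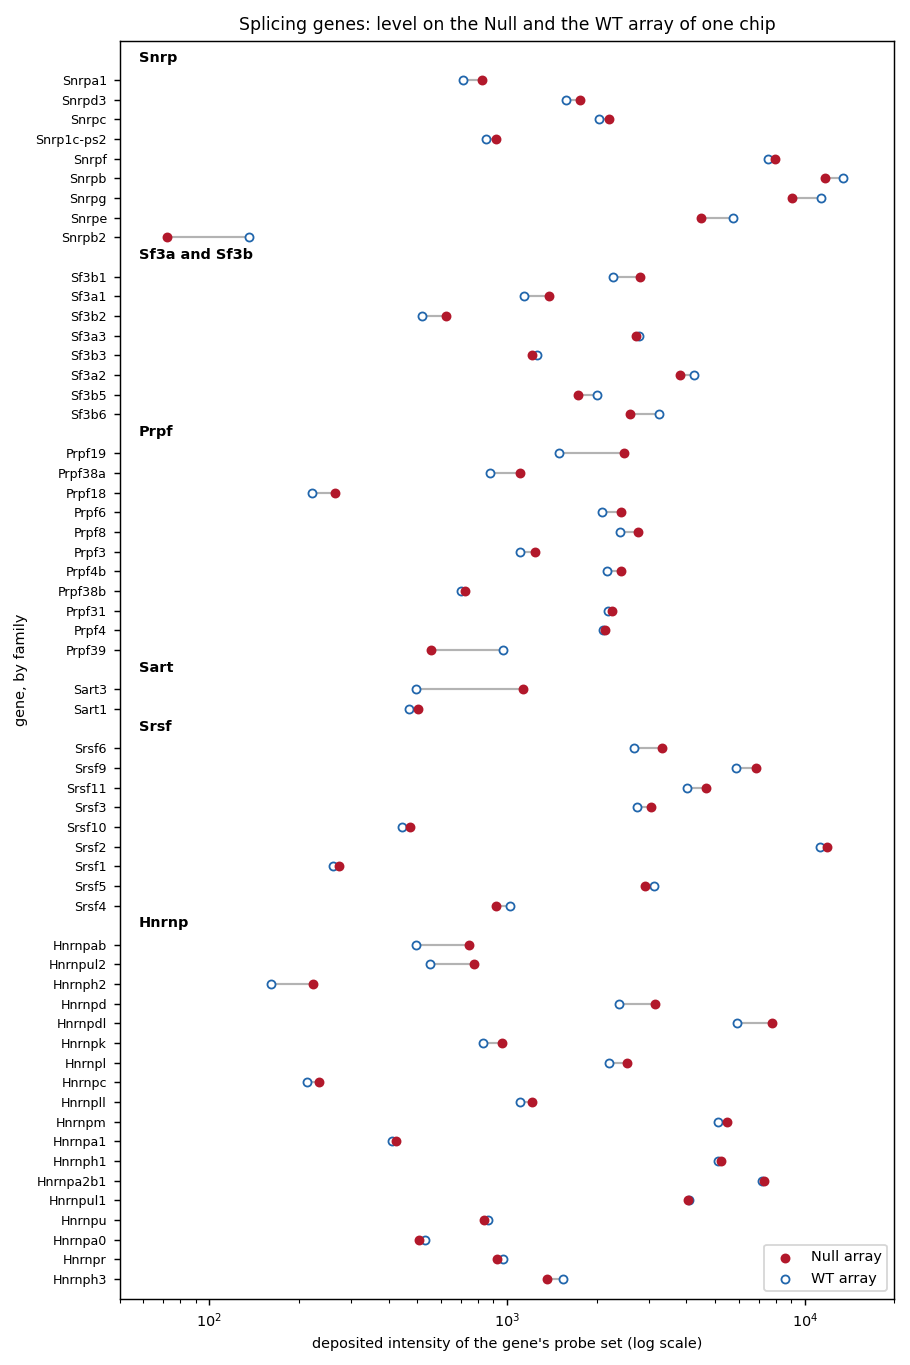
Deposited intensity on a log scale (horizontal axis) for each of the 57 genes (vertical axis, grouped by family and ordered by ratio), with a filled point for the Null array and an open point for the WT array of the same chip. Intensities are drawn without the floor. Sart3, Snrpb2, Prpf39 and Prpf19 have the long connecting lines, and the Null point of Snrpb2, at 71.9, lies below the floor of 98.3.

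The promoters of these genes are shown so that letters the members share can be set beside their ratios. RefSeq windows of assembly GRCm38.p6, 300 bases from 250 before to 50 after the start, were at hand for 50 of the 57 genes. CCGGAAG, a motif bound by ETS factors, was searched on both strands. It was found in 18 of the 50, or 36%, against 17.0% of the 9936 windows of measured genes and 9.12% of all 27025 windows. The box CCAAT was found in 50% of member windows, 38.6% of those of measured genes and 37.9% of all. For TATAAA these shares were 10%, 7.55% and 14.2%, and for AAGATGGC, the core bound by YY1, they were 6%, 4.57% and 2.88%. The palindromic motif bound by NRF1 was in 0%, 1.95% and 0.977%, and the palindromic motif bound by BANP in 2%, 1.06% and 0.496%. All were searched on both strands, and matches of different motifs can share bases. Members with CCGGAAG had a median log2 ratio of 0.02, and the 32 without it 0.08. The windows printed are those of Prpf19, the highest ratio with a window at hand, and of Snrpe, Snrpb2 and Prpf39, the 3 lowest ratios of the 57, with each CCGGAAG match on either strand in capitals.
Prpf19, chr19:10894981-10895280, plus strand: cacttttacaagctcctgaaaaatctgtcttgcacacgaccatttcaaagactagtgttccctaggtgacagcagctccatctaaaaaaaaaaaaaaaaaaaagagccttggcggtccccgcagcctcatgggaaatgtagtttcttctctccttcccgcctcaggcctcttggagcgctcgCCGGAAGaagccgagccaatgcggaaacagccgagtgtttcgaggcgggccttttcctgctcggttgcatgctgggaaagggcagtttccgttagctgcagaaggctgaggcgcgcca
Snrpe, chr1:133610231-133610530, minus strand: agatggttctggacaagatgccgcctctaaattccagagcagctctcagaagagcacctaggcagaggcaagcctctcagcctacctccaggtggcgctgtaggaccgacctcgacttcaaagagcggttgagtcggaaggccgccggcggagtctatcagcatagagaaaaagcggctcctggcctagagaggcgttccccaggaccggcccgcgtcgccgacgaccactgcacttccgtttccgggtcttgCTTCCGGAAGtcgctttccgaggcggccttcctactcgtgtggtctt
Snrpb2, chr2:143062819-143063118, plus strand: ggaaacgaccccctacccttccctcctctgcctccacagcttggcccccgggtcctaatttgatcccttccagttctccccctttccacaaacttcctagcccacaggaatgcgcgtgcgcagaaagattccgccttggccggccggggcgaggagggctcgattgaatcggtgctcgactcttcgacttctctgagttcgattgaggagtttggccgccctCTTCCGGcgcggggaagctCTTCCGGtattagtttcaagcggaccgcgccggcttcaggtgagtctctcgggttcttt
Prpf39, chr12:65036084-65036383, plus strand: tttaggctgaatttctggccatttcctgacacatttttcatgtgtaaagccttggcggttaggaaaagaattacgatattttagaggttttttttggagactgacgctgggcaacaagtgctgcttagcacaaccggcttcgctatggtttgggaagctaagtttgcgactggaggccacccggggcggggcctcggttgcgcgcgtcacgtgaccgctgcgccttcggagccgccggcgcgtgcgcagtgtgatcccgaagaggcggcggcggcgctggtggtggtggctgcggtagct
Prpf19 held 1 match, Snrpe 2 that overlap on opposite strands, Snrpb2 2 and Prpf39 none, so matches stood at both ends of the ratios. A match is a description of letters and not a binding site.

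The Snrp genes encode proteins of the small nuclear ribonucleoproteins, and their 9 members were divided, with 5 ratios above 0, 4 below and a median of 0.08. Snrpb, which encodes the Sm protein B, read 11659.7 on the Null array and 13429.5 on the WT array, a log2 ratio of -0.21. Snrpg, another protein of the Sm ring, read 9061.5 on the Null array and 11330.4 on the WT array, a log2 ratio of -0.33. For Snrpe the readings were 4479.2 on the Null array and 5753.3 on the WT array, a log2 ratio of -0.37. These 3 Sm genes were lower on the Null array, by 1.16- to 1.29-fold. Snrpf and Snrpd3, which complete the Sm genes measured, did not share that direction. Snrpf read 7969.3 on the Null array and 7506.2 on the WT array on U74Bv2, a log2 ratio of 0.08, and Snrpd3 stood at 0.15 on U74Av2 and at -0.36 and 0.31 on U74Cv2. A probe set of Snrpb on U74Bv2 gave 0.47, the other direction from U74Av2. The U74Av2 probe sets of Snrpb and Snrpe carry a letter suffix, which can mark sequence shared with other transcripts. Snrpc, the U1 C protein of 5' splice site recognition, stood at 0.10, with 2198.1 on the Null array and 2033 on the WT array, and Snrpa1 of the U2 particle at 0.20. Snrpb2, another U2 protein, read 71.9 on the Null array and 136.2 on the WT array. With the Null array at the floor of 98.3 this is at least 1.39-fold lower, and its 2 other probe sets were below the floor on both arrays. Snrp1c-ps2, annotated as a pseudogene, stood at 0.10.

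The SF3A and SF3B genes went both ways by subunit, with 3 ratios above 0, 5 below and a median of -0.05. Sf3b1, the large SF3B subunit that clamps the branch site, read 2790.7 on the Null array and 2264.6 on the WT array, a log2 ratio of 0.29. A second probe set of Sf3b1 on U74Av2 gave 0.16, and one on U74Bv2 with the Null array at the floor gave a bound of -0.17. Sf3a1 gave 0.27 on U74Av2 and 0.27 on U74Bv2, from different probe sets. On the other side stood Sf3b6, the small subunit that touches the branch point adenosine, with 2595.1 on the Null array and 3232.7 on the WT array, a log2 ratio of -0.33. Sf3b5, another small SF3B subunit, read 1732.8 on the Null array and 2006 on the WT array, a log2 ratio of -0.22. Both small subunits were lower on the Null array, where the large one was higher. Sf3a2 read 3807.8 on the Null array and 4232.6 on the WT array, a log2 ratio of -0.16, and its second probe set gave -0.34. Sf3a3 and Sf3b3 were near 0, at -0.04 and -0.06. Sf3b2, measured on all 3 chips, read 624.3 on the Null array and 519.5 on the WT array of U74Av2, and 643.4 on the Null array and 507.9 on the WT array of U74Bv2. These ratios of 0.26 and 0.34 were not matched on U74Cv2, where it read 283.8 on the Null array and 320.4 on the WT array, a log2 ratio of -0.20.

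Among the PRPF genes 10 of 11 ratios were above 0, where 48.5% of all measured genes were, with a median of 0.16. Prpf4, Prpf31 and Prpf38b among the 10 were close to 0. With probe sets averaged, with unsuffixed probe sets only or without U74Cv2, 9 of 11 were above 0. Prpf19, the ubiquitin ligase at the core of the Prp19 complex that activates the spliceosome, read 2463.7 on the Null array and 1490.7 on the WT array. This is a log2 ratio of 0.72, or 1.64-fold higher in Null, and its promoter window holds 1 match to CCGGAAG. Its other probe set read 96.5 on the Null array and 124.9 on the WT array, the opposite direction, with the Null array below the floor and a bound of -0.35, and the mean of both was 0.19. Prpf8, the scaffold of the catalytic centre, read 2747.8 on the Null array and 2398.2 on the WT array, a log2 ratio of 0.19. Its second probe set, on U74Cv2, was at the floor on the WT array and gave a bound of 0.21. Prpf6 of the U5 particle stood at 0.21, Prpf38a of the precatalytic spliceosome at 0.32, and Prpf18, a factor of the second step of splicing, at 0.25 and 0.42 in its probe sets.

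Prpf4b, a kinase that phosphorylates spliceosome proteins, was measured by 5 probe sets. On U74Cv2 its 3 probe sets read 2421.8, 571 and 1681.4 on the Null array and 2172.1, 496.3 and 1265.7 on the WT array. On U74Bv2 a probe set read 292.9 on the Null array and 209.4 on the WT array, and on U74Av2 another read 123.1 on the Null array and 102.5 on the WT array. All 5 were higher on the Null array, on all 3 chips, with log2 ratios between 0.13 and 0.48. The U74Av2 reading lies close to the floor of 98.3. Prpf3 and Prpf4, partners in the U4/U6 particle, stood at 0.16 and 0.00. Prpf31, which binds U4, stood at 0.02 and 0.41 on U74Cv2 and at -0.02 on U74Av2. Prpf38b stood at 0.03 and -0.04 on U74Bv2 and at 0.33 on U74Av2.

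Prpf39, known as a U1-associated factor, had the lowest ratio of the 57 with the floor at the 40th percentile, whereas with no floor or a floor at the 20th percentile Snrpb2 was lower, at -0.93. On U74Bv2 it read 554.5 on the Null array and 966.1 on the WT array, a log2 ratio of -0.81, or 1.75-fold lower in Null. Both of its other probe sets, on U74Av2, were below the floor on both arrays, so 1 probe set carries this value. Its promoter window holds no match to CCGGAAG. Prpf4 shows how far single probe sets can part. Its second probe set on U74Cv2 read 73.4 on the Null array and 446.4 on the WT array, a bound of -1.85, whereas the others gave 0.00 on the same chip and 0.31 on U74Bv2.

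Sart3, an RNA-binding protein that helps U4 and U6 rejoin after splicing, had the largest ratio of the 57. Its probe set of higher intensity rank on U74Av2 read 1131.8 on the Null array and 495.7 on the WT array, a log2 ratio of 1.18, or 2.27-fold higher in Null. A second probe set on the same chip read 366.2 on the Null array and 424.9 on the WT array, a log2 ratio of -0.22. The probe sets therefore disagree in direction, and their mean was 0.48. Sart1, a protein of the U4/U6.U5 particle, read 502.3 on the Null array and 468.7 on the WT array on U74Av2, and 243.6 on the Null array and 239 on the WT array on U74Bv2. Both Sart1 ratios were close to 0, at 0.09 and 0.02.

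**Figure D3:**
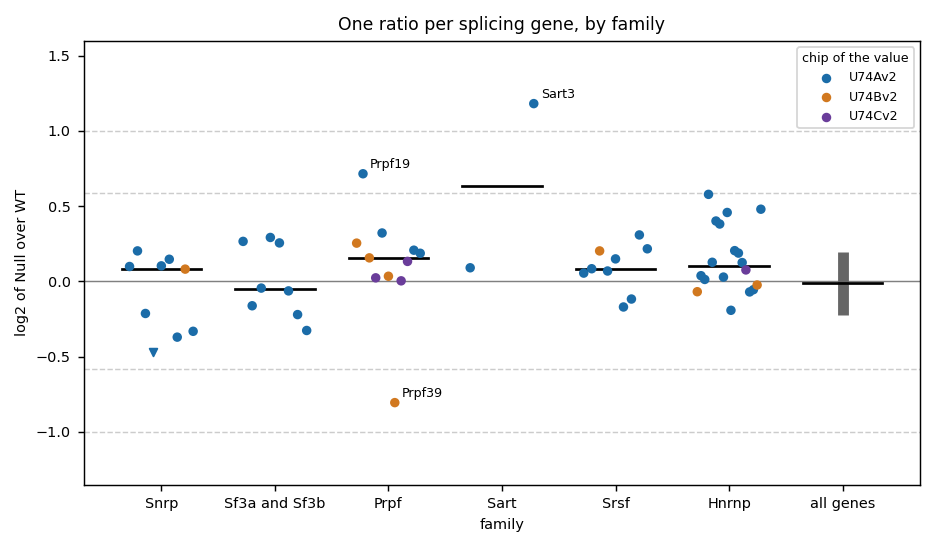
Log2 ratio of Null over WT (vertical axis) of each gene by family (horizontal axis), coloured by the chip of its value, with the family median as a black line and the median and middle 50% of all measured genes at the right. Dashed lines mark 1.5-fold and 2-fold, and the triangle marks Snrpb2, a bound. Sart3 at 1.18 lies beyond 2-fold, and Prpf19 at 0.72 and Prpf39 at -0.81 lie beyond 1.5-fold.

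SR proteins carry RNA recognition motifs and a domain rich in arginine and serine. Their 9 genes had a median of 0.08 with 7 ratios above 0, or 5 with probe sets averaged. Srsf2, also known as SC35, read 11882.9 on the Null array and 11253.8 on the WT array, a log2 ratio of 0.07, and a second probe set gave 0.26. Srsf9 read 6869.4 on the Null array and 5873.4 on the WT array, a log2 ratio of 0.22. Srsf3, the smallest of the family, stood at 0.15, but its other measured probe set had the Null array at the floor, a bound of -0.49. None of the 9 reached 1.5-fold in its value. Srsf1, the prototype of the family, stood at 0.06 and -0.01 on U74Av2 and at 0.56 on U74Bv2. Srsf10, which represses splicing when dephosphorylated, stood at 0.08, Srsf5 at -0.12 and Srsf4 at -0.17 with 0.33 in another probe set.

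Srsf11 and Srsf6 were measured on all 3 chips, and their probe sets did not go together. Srsf11 read 4658.7 and 3471.9 on the Null array and 4034.9 and 3859.8 on the WT array of U74Bv2, with log2 ratios of 0.20 and -0.16. On U74Av2 it stood at 0.04. On U74Cv2 1 probe set read 200.3 on the Null array and 561.5 on the WT array, a log2 ratio of -1.51, and 2 others stood at -0.32 and 0.51. Its 6 probe sets thus split evenly about 0, over a range of 2.02. Srsf6 read 3319.6 on the Null array and 2662.6 on the WT array of U74Av2, a log2 ratio of 0.31. On U74Bv2 it read 2112.5 and 1885.6 on the Null array and 1715.1 and 2358.5 on the WT array, with ratios of 0.30 and -0.33. On U74Cv2 it read 261.7 on the Null array and 409.8 on the WT array, a ratio of -0.67. Srsf6 thus went both ways, and the average over its probe sets was -0.10.

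The hnRNP genes were the largest family, with 13 of 18 ratios above 0, or 12 with probe sets averaged, and a median of 0.10. Hnrnpd, known as the AU-rich element binding protein AUF1, read 3151.1 on the Null array and 2370.3 on the WT array, a log2 ratio of 0.40. Its relative Hnrnpdl read 7770.9 on the Null array and 5926.8 on the WT array, a log2 ratio of 0.38, and a second probe set gave 0.16. Hnrnpab, another relative of these, read 745.1 on the Null array and 495.7 on the WT array, a log2 ratio of 0.58. All 3 related genes were higher on the Null array of U74Av2, by at most 1.49-fold. Hnrnpab did not keep that direction on U74Cv2, where it read 301.8 on the Null array and 377.5 on the WT array, a log2 ratio of -0.35. Hnrnpul2, related to hnRNP U, read 775.4 and 714.1 on the Null array and 552.4 and 578.1 on the WT array in its probe sets, with ratios of 0.48 and 0.30. Hnrnph2 stood at 0.46 from a dim probe set with 222.2 on the Null array and 160.7 on the WT array.

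Ratios of several core hnRNPs were close to 0. Hnrnpa2b1, a core protein of hnRNP particles, read 7281.6 on the Null array and 7169.7 on the WT array, a log2 ratio of 0.01, and its second probe set gave -0.01. Hnrnpul1 on U74Bv2 read 4039.4 on the Null array and 4093.7 on the WT array, a log2 ratio of -0.02. Hnrnpa1, the A1 protein that silences exons, stood at 0.04, and Hnrnpc, which binds uridine tracts, at 0.13. The readings of Hnrnph1 and Hnrnpu, at 0.03 and -0.05, were within the spread between probe sets. Hnrnpk, which binds cytidine-rich RNA, stood at 0.20, Hnrnpl, which binds CA repeats, at 0.19, and its paralogue Hnrnpll at 0.13 on U74Av2 and -0.25 on U74Bv2. Hnrnpm stood at 0.08 and 0.27. The remaining ratios were -0.07 for Hnrnpa0, -0.19 for Hnrnph3 and -0.07 for Hnrnpr, whose other probe sets, on U74Cv2, gave 0.01 and 0.45.

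Several probe sets of 1 gene give the only repeated measurement here. Of the 135 probe sets 99 were above the floor on both arrays, 8 on 1 array and 28 on neither. Above the floor on at least 1 array were 107, and 3 of these were at least 2-fold different, in Sart3, Srsf11 and Prpf4, where 4.65% of all measured probe sets were. Neither Srsf11 nor Prpf4 was 2-fold different in its other probe sets, and both of those ratios came from U74Cv2, where 11.2% of all measured probe sets were 2-fold different. There were 27 members with 2 or more probe sets above the floor on both arrays. In 13 of them all probe sets lay on the same side of 0, or 48.1%, against 46.2% of all such genes. In 12 of the 13 that side was above 0, and the exception was Sf3a2. Over all such genes the shares were 22.8% with every probe set above 0 and 23.4% with every one below. Prpf4 and Sf3b1 among the 12 each had a further probe set with the Null array at the floor, on the lower side. The 12 were Prpf4b, Prpf4, Prpf18, Sart1, Sf3a1, Sf3b1, Snrpc, Srsf2, Srsf10, Hnrnpdl, Hnrnpm and Hnrnpul2. Snrpc among them ranged from 0.00 to 0.90, where the upper value came from U74Cv2, with 1921.3 on the Null array and 1010.3 on the WT array. Across chips, 7 of 10 members measured on U74Av2 and U74Bv2 kept their direction, but only 3 of 10 on U74Av2 and U74Cv2. The other pair of chips gave 3 of 5. Over all genes these shares were 56.0%, 53.4% and 51.9%.

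**Figure D4:**
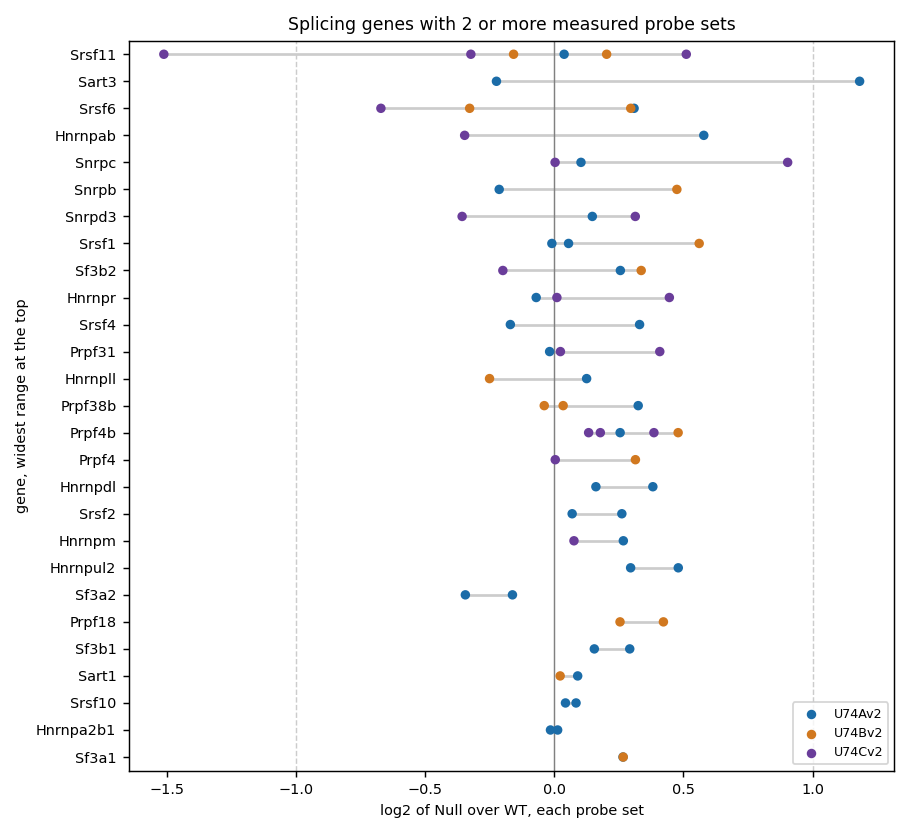
Log2 ratio of Null over WT (horizontal axis) of every probe set above the floor on both arrays, for the 27 genes with 2 or more such probe sets (vertical axis, widest range at the top), coloured by chip. Srsf11 spans -1.51 to 0.51 and Sart3 -0.22 to 1.18, while the 5 probe sets of Prpf4b all lie above 0. The points of Sf3a1 overlap at 0.27.

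Splicing genes outside the rule, in 6 lists, showed similar medians. Of the 111 measured 75 had ratios above 0, and their median was 0.10. Of the 111, 0 were at least 2-fold higher, where 1.42% of all measured genes were, and 3 at least 2-fold lower, where 1.64% were. The 3 were Elavl1 and Rbmxl2, with values from U74Cv2, where 4.69% of all genes with their value on that chip were at least 2-fold lower, and Sf1 on U74Av2. Elavl1, the RNA-stabilising protein HuR, read 1129.6 on the Null array and 2291 on the WT array on U74Cv2, a log2 ratio of -1.04, whereas its 4 other measured probe sets lay between -0.27 and 0.17. Rbmxl2, known as the germ cell hnRNP G-T, read 92.9 on the Null array and 291.6 on the WT array, a bound of -1.23 from its only measured probe set. Sf1, the branch point binding protein, read 96.9 on the Null array and 215.6 on the WT array, a bound of -1.13, also from 1 dim probe set. By list, the other genes of the tri-snRNP and Prp19 complex had a median of 0.15 over 27 with 21 above 0, with the chaperone Hspa8 (6984 on the Null array, 6245 on the WT array) at 0.15 and the cyclophilin Ppil1 (4344.9 on the Null array, 4230.3 on the WT array) at 0.03. SR-related proteins and SR kinases had 0.15 over 19 with 12 above 0, and the large SR-related protein Srrm2 read 14081.4 on the Null array and 12033.3 on the WT array, a ratio of 0.22, with its other probe sets between 0.14 and 0.28. Rbm25 of the same list read 3926.6 on the Null array and 3219 on the WT array, a ratio of 0.28, but its 3 other measured probe sets lay between -1.88 and -0.05. Other RNA-binding regulators had 0.12 over 32 with 23 above 0. The other U1, U2 and branch site genes had 0.05 over 14 with 8 above 0. Lsm and snRNP assembly genes had 0.04 over 18 with 10 above 0, and Lsm4 and Lsm7, proteins of Sm-like rings, stood at 0.15 (5105.1 on the Null array, 4582.9 on the WT array) and -0.07 (5080.6 on the Null array, 5311.9 on the WT array). Of the exon junction complex list 1 gene was measured, Rbm8a, with 4225.1 on the Null array and 3654.8 on the WT array, a ratio of 0.20, and -0.50 in another probe set.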

How the data were processed

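The 6 arrays were used as deposited, as linear intensities per probe set, already scaled by the authors array by array, since the mean without the lowest and highest 2% of values was 500.1 to 500.3 on every array. The software behind them is not given in the sources used here, and no detection calls were used. Groups came from the sample titles. Gene names came from GEO's platform annotation, and all 57 members matched a RefSeq gene by Entrez identifier with no symbol changed. Probe sets with several symbols, 8 of them naming a member, were left out. Of the 57 values 13 rest on probe sets with a letter suffix, which can mark sharing between transcripts, so genes with pseudogene copies are uncertain.

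Per chip, without the 66 control probe sets, Null intensities were divided by the median of Null over WT among probe sets in the upper 50% of mean rank (log2 shifts 0.00 to 0.02), and values were floored at 98.3, 165 and 124 before log2. Printed intensities are unscaled. Fold thresholds were 2 and 1.5. The members, lists and rules were chosen with earlier results of these data known. Named genes were the 6 highest and 6 lowest ratios, any probe set 2-fold different, the 2 of highest intensity rank per family, the widest ranges, members on 3 chips, and for other lists up to 4 genes 2-fold different or else 2 of highest rank; other members are described too. Python 3.11.15, numpy 2.4.6, pandas 2.3.3, statsmodels 0.14.6 and matplotlib 3.10.9 were used, and the calculation was tested on simulated data. Alternatives covered scaling, floor, probe sets and chips.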

Additional observations from a re-analysis of the deposited data

How the results depend on the processing

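The median over the splicing genes stayed between 0.09 and 0.11 on the log2 scale under all 10 alternatives, with 50 to 57 genes measured. Sart3 was the 1 gene at least 2-fold higher except when all measured probe sets of a gene were averaged. That average left 0 genes 2-fold higher and 0 genes 1.5-fold higher. With intensities as deposited 3 genes were at least 1.5-fold higher, since Hnrnpab then stood at 0.59. The count at least 1.5-fold lower was 2 after lowering the floor to the 20th percentile and 2 with no floor, since Snrpb2 then stood at -0.93, and 0 with U74Av2 alone, which does not measure Prpf39 above the floor. Of 551 gene values recomputed, 532 moved by less than the spread between probe sets. Many of these could not move. A changed floor leaves a gene above it as it was, and leaving out chips or suffixed probe sets often keeps the same probe set. This count is therefore no measure of stability. The average over probe sets moved 13 genes, among them Sart3 to 0.48, Prpf19 to 0.19 and Hnrnpab to 0.12. Of the 13, 8 changed sign: Prpf4 to -0.51, Srsf11 to -0.21, Srsf3 to -0.17, Srsf6 to -0.10, Hnrnpll to -0.06, Srsf4 to 0.08, Hnrnpr to 0.13 and Snrpb to 0.13. With probe sets without a letter suffix alone Srsf3 stood at -0.49 and Sf3b2 at -0.10. On U74Av2 alone the Snrp median was -0.06 over 8 genes. No paired analysis was possible because each genotype had 1 array per chip. Signal near the floor limits Snrpb2, Hnrnph2, Hnrnpc and Prpf18.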
